A study of Mus musculus with 8 samples.

Results

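The response of Foxp3-targeted regulatory T (Treg) cells to 3 h of T cell receptor (TCR) restimulation was measured in 4 of the 8 RNA-seq libraries of the study, 2 unstimulated (0 h) and 2 restimulated (3 h). The libraries were chosen by guide and time as labelled, and no measured value entered that choice. All groups were ex vivo cultured nTreg cells of genotype RosaCas9/+ Foxp3gfp, sorted as CD4-positive, GFP-positive cells from mouse spleen and lymph nodes. The reporter marks cells that expressed Foxp3 at the time of the sort, and Cas9 cuts where the guide RNA directs it. Cells of interest carried the guide sgFoxp3, and the 4 comparison libraries carried sgNC, called the control guide here. Unstimulated cells were treated with DPBS buffer only, and stimulated cells received restimulation with antibodies to CD3 and CD28. Age and sex of the mice, length of culture and sequence of the guides are not given in the sources used here. The labels number the libraries 1 and 2 within a group without naming separate animals or cultures, so p-values measure the spread between libraries, which may be technical. Expected counts were available for 55665 annotated genes, of which 16642 had enough counts to be tested.

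A TCR that meets its antigen, with CD28 as co-stimulus, signals through kinases to calcium and NFAT, to ERK and AP-1 and to NF-kappaB. Immediate early transcription factors are induced first, followed by cytokines, surface receptors and the machinery of growth, while genes that hold resting T cells in the circulation are switched off. In Treg cells Foxp3 binds many of the same control regions and is known for holding down cytokine genes such as Il2. Stimulation of cells that carry a guide against Foxp3 asks how the TCR programme runs when that gene is targeted.

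The 4 Foxp3-guide libraries held 55865290 to 94807362 expected counts and the control-guide libraries 38729009 to 48626432. The replicates of both times correlated at r = 0.996 over log2 CPM, which are counts scaled to library size with edgeR's TMM factors. In the 4 Foxp3-guide libraries the first principal component took 97.2% of the variance and parted 0 h from 3 h. Mitochondrial transcripts took 1.87% to 2.28% of the counts. Foxp3 itself (ENSMUSG00000039521.13; chromosome X, 7573644 to 7595245, plus strand, protein coding; GRCm38 here and throughout) stood at 87.6 and 88.5 CPM at 0 h and 76.1 and 71.8 CPM at 3 h with the Foxp3 guide. The control-guide libraries held 764 and 776 CPM at 0 h and 679 and 673 CPM at 3 h. The Foxp3-guide libraries lay far below the control-guide ones at both times, while transcript remained in each, and protein was not measured. The TCR effect on Foxp3 was -0.25 ± 0.04 on the log2 scale with the Foxp3 guide. It differed between guides by -0.07 ± 0.06 (adjusted p = 0.38). Summed T cell identity markers were 3838 to 3856 CPM at 0 h and 3917 to 4044 CPM at 3 h in Foxp3-guide libraries, and all 9 were detected. B cell markers summed to 257 and 260.4 CPM at 0 h and to 33.5 and 34.3 CPM at 3 h. Most of that was the immunoglobulin transcript Ighm (from 249 and 252 to 27.3 and 28.8 CPM). The B cell genes Ms4a1 and Pax5 had 0 or 1 count in each Foxp3-guide library. Of 5 B cell markers tested 4 fell and 1 rose at least 2-fold, against 28.4% and 22.6% of all tested genes. CD8 markers summed to 7.7 to 8.71 CPM, NK markers to 0.306 to 1.6 CPM, myeloid markers to 3.37 to 7.84 CPM and erythroid and stromal markers to 171.8 to 199.6 CPM. The part of these other cell types in the results was not tested.

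Between 0 h and 3 h most measured transcripts moved. The quasi-likelihood test of edgeR, adjusted by Benjamini and Hochberg's method, called 14208 of 16642 genes at an adjusted p below 0.05, which is 85.4% of those tested. Of these, 6794 (40.8%) were higher and 7414 (44.5%) lower at 3 h. Requiring a change of at least 2-fold as well left 8484 genes (51%), 3759 higher (22.6%) and 4725 lower (28.4%). At least 4-fold changes were called in 1874 genes upward (11.3%) and 2411 downward (14.5%). The 0 h and 3 h libraries did not overlap in CPM for 15358 genes (92.3%). A call alone therefore singles out no gene here, and sizes are given throughout. In bulk RNA, less transcript per cell and fewer cells of a type cannot be told apart. The median log2 change over all tested genes was -0.07 and moved to -0.24 with upper-quartile scaling and to -0.18 on the log2(TPM+1) scale, on which 38.7% of 13361 calls were higher. All values after ± are approximate standard errors (SE) of a log2 change. Each was taken as the size of the change divided by the square root of the F statistic of the quasi-likelihood test. For genes that start near 0 counts they can understate the uncertainty, and fits without 1 library are given for several of these. Every gene said to rise or fall below passed the same adjusted threshold.

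**Figure D1:**
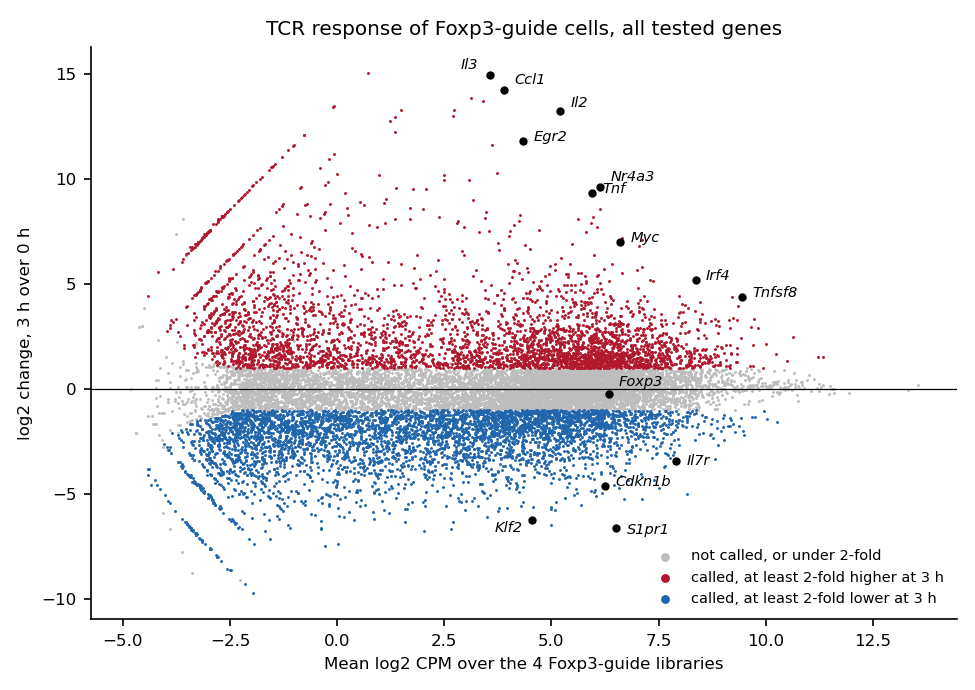
Each point is 1 of the 16642 tested genes, with its mean log2 CPM over the 4 Foxp3-guide libraries on the horizontal axis and its log2 change from 0 h to 3 h on the vertical axis. The 3759 red and 4725 blue points are called with at least 2-fold changes, cytokine and early response genes stand highest, S1pr1 and Klf2 stand lowest among the labelled genes, and the slanted lines of points at the left are genes at or near 0 counts at one of the times.

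Leaving aside weakly expressed genes (mean log2 CPM below 3), the largest rises were in secreted factors and early transcription factors that were almost silent at 0 h. Interleukin 3, a haematopoietic growth factor encoded by Il3 (ENSMUSG00000018914.5; chromosome 11, 54265303 to 54267277, minus strand), stood at 0 and 0.116 CPM at 0 h and 1862 and 1973 CPM at 3 h. The chemokine gene Ccl1 (ENSMUSG00000020702.13; chromosome 11, 82176657 to 82305690, minus strand) stood at 0 and 0.233 CPM at 0 h and 2222 and 2319.5 CPM at 3 h. Xcl1, the chemokine that draws cross-presenting dendritic cells (ENSMUSG00000026573.7; chromosome 1, 164931644 to 164935527, minus strand), stood at 0 and 0.131 CPM at 0 h and 954 and 1013 CPM at 3 h. In all 3 genes the first unstimulated library had 0 counts and the second had 8, 16 and 9 counts, so the fitted log2 changes of 14.98 ± 0.17, 14.25 ± 0.30 and 13.85 ± 0.21 rest on few counts at the start. Without the first unstimulated library they were 13.97, 13.22 and 12.84, and without the second the start was 0 counts and the fit (19.68, 19.92 and 18.72) gives no fold. Compared in TPM, which is scaled by transcript length, Ccl1 moved from rank 13649 among tested genes to rank 4, Il3 from 14936 to 13, Il2 from 13489 to 15 and Xcl1 from 14468 to 25.

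Il2, the T cell growth factor that Treg cells normally do not make (ENSMUSG00000027720.7; chromosome 3, 37120523 to 37125959, minus strand), stood at 0.196 and 0.553 CPM at 0 h and 3617 and 3769 CPM at 3 h. The unstimulated libraries held under 1 CPM each, and the log2 change was 13.27 ± 0.13, or 14.17 without the second unstimulated library. The chemokine gene Ccl4 rose by 13.73 ± 0.14 (13.00 and 15.14 without the first or second unstimulated library). Csf2, which encodes GM-CSF, rose by 11.62 ± 0.11 (12.31 without the second) and Ifng, which encodes interferon gamma, by 10.29 ± 0.07. Tnf, the inflammatory cytokine (ENSMUSG00000024401.14; chromosome 17, 35199381 to 35202007, minus strand), went from 2.35 and 2.42 to 1551 and 1594 CPM (9.36 ± 0.06). The EGF-family ligand gene Hbegf rose by 9.99 ± 0.08 and Rgs16, a regulator of G protein signalling, by 8.60 ± 0.07. The scaffold gene Fam83g rose by 8.44 ± 0.07. Havcr2, which encodes the inhibitory receptor TIM-3, rose from 0.322 and 0.436 to 194 and 197 CPM (9.01 ± 0.08).

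Above the same level, the largest falls included these genes. S1pr1, the sphingosine 1-phosphate receptor by which T cells leave lymph nodes (ENSMUSG00000045092.8; chromosome 3, 115710433 to 115715072, minus strand), stood at 907 and 909 CPM at 0 h and 8.86 and 9.61 CPM at 3 h. Its log2 change was -6.61 ± 0.06. Klf2, the transcription factor that drives S1pr1 and holds T cells quiescent (ENSMUSG00000055148.7; chromosome 8, 72319033 to 72321656, plus strand), stood at 207 and 196 CPM at 0 h and 2.78 and 2.63 CPM at 3 h and changed by -6.23 ± 0.07. Both genes stayed under 10 CPM in the stimulated libraries. The sialyltransferase genes St8sia1 and St8sia6 changed by -6.48 ± 0.05 and -5.58 ± 0.06, and Cmah, the hydroxylase for sialic acid, by -5.61 ± 0.05. Pik3ip1, an inhibitor of PI3 kinase, changed by -5.83 ± 0.07. The MAX partner and MYC antagonist Mxd4 changed by -5.50 ± 0.05 and the cyclic GMP-stimulated phosphodiesterase Pde2a by -5.63 ± 0.06. The centrosomal gene Cep97, the mitotic regulator Pimreg, the CARD protein gene Card6 and Mturn changed by -5.36 ± 0.06, -5.68 ± 0.08, -5.40 ± 0.05 and -6.11 ± 0.07.

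Genes at the top of the pathway were divided between rises and falls. Of 30 genes of the TCR complex and proximal signalling, 16 rose and 14 fell, against 40.8% and 44.5% of all tested genes. At least 2-fold, 9 rose and 6 fell (22.6% and 28.4% of all tested genes). The median of the 30 genes, 0.17, turned to -0.01 with upper-quartile scaling and to -0.25 on the log2(TPM+1) scale. Ubash3b, a phosphatase that dampens TCR signalling, rose by 3.46 ± 0.04, the adaptors Sla and Lcp2 (SLP-76) by 2.92 ± 0.04 and 2.66 ± 0.04, and the kinase Zap70 by 1.82 ± 0.04. Malt1, the protease that links the receptor to NF-kappaB, rose from 198 and 201 to 787 and 742 CPM. Sla2, an adaptor that takes TCR complexes off the surface, changed by -3.62 ± 0.06, the largest fall of the group. The co-receptor gene Cd4 fell from 462 and 461 to 179 and 182 CPM.

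Of 17 measured calcium and NFAT genes 7 rose and 9 fell (40.8% and 44.5% of all tested genes), with a median of -0.32. Orai1, the pore of the store-operated calcium channel, went from 21.4 and 21.9 to 277 and 282 CPM (3.69 ± 0.04). Nfatc1, the autoinduced NFAT, rose by 2.10 ± 0.04, while Nfatc3 changed by -2.10 ± 0.04. The calcineurin inhibitor genes Rcan1 and Rcan3 moved apart, at 1.98 ± 0.06 and -2.20 ± 0.04. The scaffold gene Homer1 rose by 2.83 ± 0.06. The kinase gene Dyrk1a did not pass the test (-0.01 ± 0.04).

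Most genes of negative feedback on ERK rose. Of 16 tested 13 rose and 2 fell, 12 of them rising at least 2-fold (22.6% of all tested genes), with a median of 3.13. Spry1, a Sprouty inhibitor of receptor signalling (ENSMUSG00000037211.12; chromosome 3, 37639947 to 37644598, plus strand), stood at 4.12 and 3.7 CPM at 0 h and 953 and 945 CPM at 3 h and rose by 7.92 ± 0.06. The 4 libraries fell into separate low and high pairs. Its relative Spred1 rose by 5.95 ± 0.07, and the MAP kinase phosphatase genes Dusp4, Dusp6, Dusp14 and Dusp2 by 5.97 ± 0.06, 4.04 ± 0.05, 3.94 ± 0.08 and 3.29 ± 0.04. Dusp4 went from 11.2 and 10.4 to 683 and 672 CPM. With the control guide it went from 49.8 and 55.6 to 659.7 and 634 CPM, and the TCR effects differed by 2.36 ± 0.07 (adjusted p = 2.0e-17).

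Immediate early transcription factors rose with few exceptions. In the group of EGR, NR4A and related genes 20 of 24 rose, 19 at least 2-fold, and 3 fell (median 2.93). Among all tested genes 40.8% rose, 22.6% at least 2-fold, and 44.5% fell. Egr2, a zinc finger factor that restrains T cell activation (ENSMUSG00000037868.15; chromosome 10, 67535475 to 67542188, plus strand), stood at 0.322 and 0.32 CPM at 0 h and 1147 and 1176 CPM at 3 h. Its low and high libraries replicated closely, and the log2 change was 11.81 ± 0.08. Egr3 rose by 8.30 ± 0.06 and Egr1 by 5.97 ± 0.05. Egr4, chosen after its values were seen, had 0 counts in both unstimulated libraries and 172 and 279 in the stimulated ones, at least 161-fold higher against a floor of 3 counts over the group. The orphan nuclear receptor genes Nr4a3, Nr4a2 and Nr4a1, which are read as gauges of TCR signal strength, rose by 9.62 ± 0.07, 7.53 ± 0.07 and 7.10 ± 0.06. Nr4a3 (ENSMUSG00000028341.9; chromosome 4, 48045153 to 48086447, plus strand) went from 2.32 and 2.66 to 1975 and 1949.8 CPM.

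All 19 AP-1 family genes passed the test (85.4% of all tested genes did), 17 upward (40.8%) and 2 downward, with a median of 2.66. Fosl1, the FOS-related protein FRA-1, went from 0.112 and 0.102 to 81.5 and 82.1 CPM (9.55 ± 0.12). Atf3, a stress-induced repressor of the same family, rose by 7.72 ± 0.08, Fosb by 4.98 ± 0.12, Maff by 4.77 ± 0.08 and Fos by 4.63 ± 0.09. Fosl2 rose by 2.75 ± 0.04. NF-kappaB subunits and targets rose in 23 of 26 cases (40.8% of all tested genes), with a median of 2.23. At least 2-fold, 21 of them rose (22.6% of all tested genes). Nfkbid, a nuclear IkappaB protein that supports Foxp3 induction (ENSMUSG00000036931.15; chromosome 7, 30421732 to 30428746, plus strand), stood at 17.9 and 17.7 CPM at 0 h and 906 and 899 CPM at 3 h and rose by 5.66 ± 0.05. Rel, the lymphoid subunit c-Rel, went from 71.4 and 72.1 to 931 and 908 CPM (3.68 ± 0.05), Nfkbiz rose by 3.68 ± 0.04 and the A20-binding inhibitor Tnip3 by 4.99 ± 0.07. The survival genes Bcl2a1b and Bcl2a1d rose by 5.49 ± 0.05 and 5.36 ± 0.06, but their near-identical sequences make the split of reads between them uncertain.

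Of 26 IRF and helper lineage factors 20 rose and 5 fell (40.8% and 44.5% of all tested genes). At least 2-fold, 13 rose and 3 fell (22.6% and 28.4% of all tested genes). Irf4, the factor whose level scales with TCR signal and that effector Treg cells need (ENSMUSG00000021356.10; chromosome 13, 30749226 to 30766976, plus strand), stood at 53.6 and 54.6 CPM at 0 h and 2035 and 1984 CPM at 3 h and rose by 5.22 ± 0.05. Irf8 rose by 7.20 ± 0.06, the co-activator Pou2af1 by 6.69 ± 0.06 and Zbtb32, a repressor of cytokine genes, by 6.25 ± 0.06. The dioxin receptor gene Ahr rose by 4.62 ± 0.05. Tbx21, the T helper 1 factor T-bet, stood at 4.12 and 3.93 CPM at 0 h and 237 and 240.1 CPM at 3 h. In control-guide libraries it stood at 1.23 and 0.999 CPM at 0 h and 333 and 342 CPM at 3 h. Both stimulated Foxp3-guide libraries lay below both stimulated control-guide ones, and the TCR effect of 5.89 ± 0.05 differed from that of the control guide by -2.36 ± 0.12 (adjusted p = 9.3e-14).

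All 27 effector cytokine genes passed the test, 25 upward, of which 24 rose at least 2-fold, and 2 downward. Their median log2 change of 8.77 kept its value when genes at 0 counts were set to their lower bound. Among all tested genes 22.6% rose at least 2-fold. Cytokine genes near 0 counts at 0 h passed the count filter only through stimulated libraries, so their count of rises is partly set by the filter. Il13, a type 2 cytokine gene (ENSMUSG00000020383.1; chromosome 11, 53631324 to 53634702, minus strand), stood at 0.028 and 0.0873 CPM at 0 h and 480.4 and 498 CPM at 3 h and rose by 13.01 ± 0.10 (12.40 and 13.97 without the first or second unstimulated library). Il31, which encodes the itch-inducing cytokine, had 0 and 2 counts in the unstimulated libraries and 7985 and 13855 in the stimulated ones, a log2 ratio of 13.51 (95% counting interval 11.66 to 16.56). Its stimulated libraries agreed at 163 and 168 CPM. The same gene had 0 counts in both unstimulated control-guide libraries and 656 and 662 counts at 3 h. Il1a, chosen after its values were seen, had 0 counts at 0 h and 1252 and 2062 at 3 h, at least 1180.0-fold higher. The members that fell, Ebi3 (-0.24 ± 0.09) and Ltb (-0.13 ± 0.04), were also chosen after their values were seen, and neither kept its call when the first unstimulated or either stimulated Foxp3-guide library was left out (adjusted p from 0.0563 to 0.0785).

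For Il2 the response ran from 0.196 and 0.553 to 3617 and 3769 CPM with the Foxp3 guide and from 0.067 and 0.122 to 392 and 398 CPM with the control guide. The stimulated Foxp3-guide libraries lay above the stimulated control-guide ones, and so did the unstimulated ones. The 0 h libraries held 14 and 38 counts against 3 and 6, and the difference between the TCR effects was 1.296 ± 0.75 (adjusted p = 0.19), which did not pass. It passed without the second unstimulated Foxp3-guide library (2.20, adjusted p = 0.0045), with limma-voom (1.52, adjusted p = 0.0437) and on the log2(TPM+1) scale (2.62, adjusted p = 6.27e-05). Ifng went from 0.364 and 0.349 to 447 and 452 CPM with the Foxp3 guide and from 0.313 and 0.449 to 183 and 188 CPM with the control guide. The difference was 1.38 ± 0.27 (adjusted p = 0.00021) and lost its call without the second unstimulated control-guide library (1.08, adjusted p = 0.0541). For Tnf the difference was 2.16 ± 0.10 (adjusted p = 1.0e-14), with unstimulated levels of 2.35 and 2.42 CPM against 4.83 and 4.91 CPM and stimulated levels of 1551 and 1594 against 708 and 735 CPM. With the Foxp3 guide both libraries of Tnf thus lay lower at the start and higher at the end. For Il3 no fold between guides is given, since the unstimulated control-guide libraries had 0 counts. Its stimulated libraries stood at 1862 and 1973 CPM with the Foxp3 guide and 444 and 463 CPM with the control guide.

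Every one of the 14 chemokine genes tested rose at least 2-fold (22.6% of all tested genes). Members near 0 counts at 0 h passed the count filter only through stimulated libraries. Examples are Ccl22 and Ccl9, with 0 counts at 0 h and 489 and 445 at 3 h with the Foxp3 guide. The count of rises is therefore partly set by the filter and is not a like comparison with all tested genes. The chemokine median of 9.58 came to 8.14 when genes at 0 counts were set to their bound and to 2.84 on the log2(TPM+1) scale. With 1 library left out that median ranged from 9.22 to 10.56, the highest without the first unstimulated Foxp3-guide library. Ccl3 and Ccl4, the paired macrophage inflammatory proteins, rose from 0.028 and 0.0727 to 521 and 549 CPM and from 0.028 and 0.131 to 1054 and 1145 CPM. Cxcl2, a neutrophil attractant, had 2 and 1 counts at 0 h and 5679 and 9675 at 3 h, a log2 ratio of 12.42 (95% counting interval 10.87 to 14.69). Ccl20, the ligand of CCR6, rose from 0.448 and 0.393 to 106 and 113 CPM (8.02 ± 0.09). The genes Ccl24 and Cxcl11 had too few counts to be tested, with at most 6 counts in a Foxp3-guide library.

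Of 10 TNF superfamily ligand genes tested 9 rose and 1 fell (40.8% and 44.5% of all tested genes), with a median of 4.97. Tnfsf8, which encodes CD30 ligand (ENSMUSG00000028362.2; chromosome 4, 63831308 to 63861347, minus strand), stood at 149 and 156 CPM at 0 h and 3199.9 and 3146 CPM at 3 h. The control-guide libraries held 145 and 145 CPM at 0 h and 459 and 434 CPM at 3 h. The unstimulated libraries of both guides lay close together and the stimulated ones far apart, with TCR effects of 4.38 ± 0.05 and 1.62 ± 0.04 and a difference of 2.75 ± 0.06 (adjusted p = 5.3e-20). Tnfsf11, which encodes RANKL, rose by 7.72 ± 0.06, Cd40lg, the helper ligand for B cells, by 6.40 ± 0.05 and Tnfsf9 (4-1BB ligand) by 5.57 ± 0.06. Tnfsf14 (LIGHT) rose by 8.20 ± 0.06 and Fasl by 3.64 ± 0.05.

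**Figure D2:**
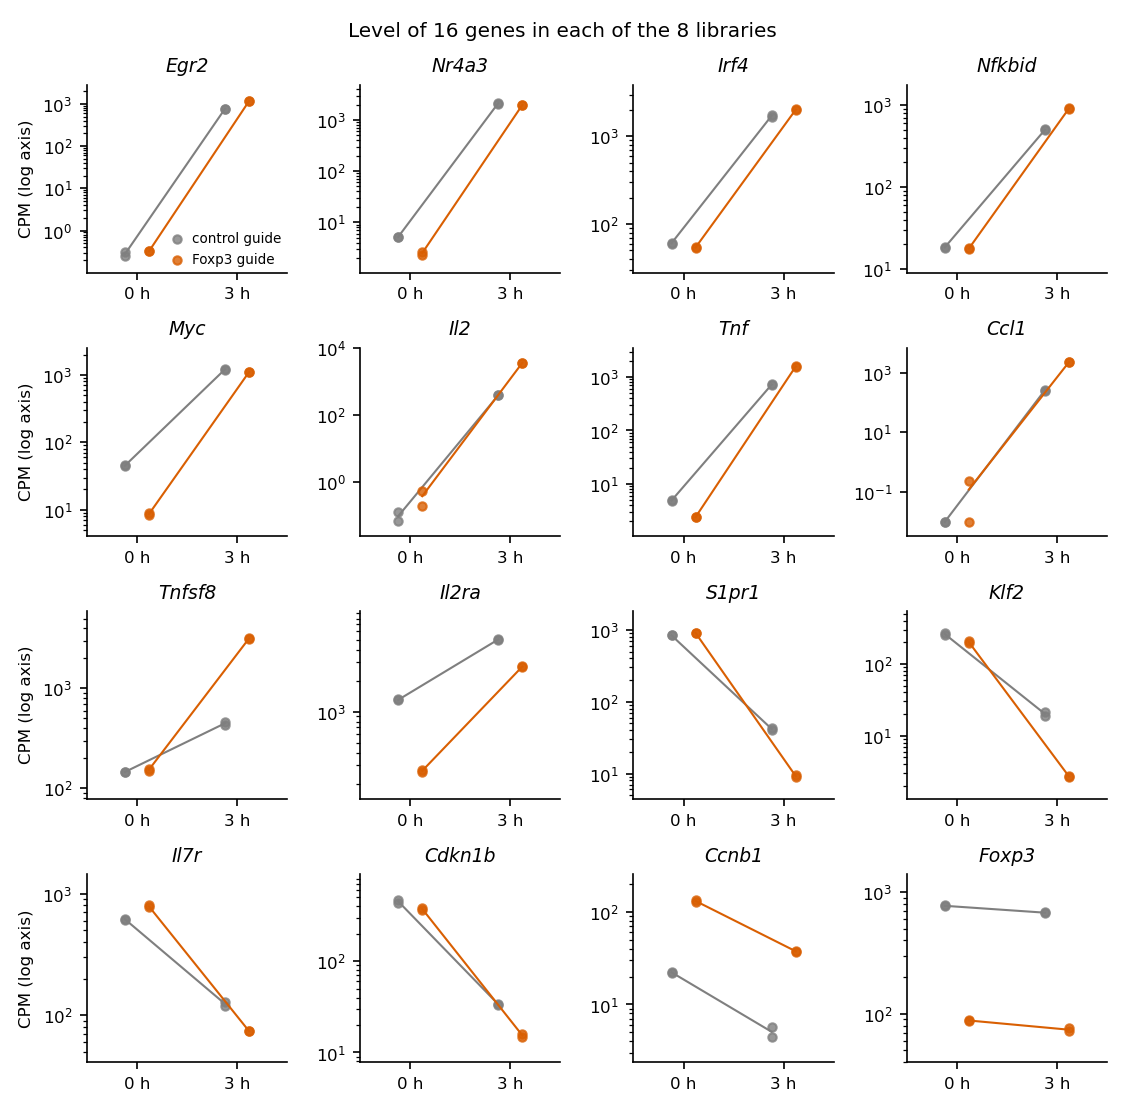
Level of 16 genes in CPM on a log axis in each of the 8 libraries, at 0 h and 3 h, with the control guide in grey and the Foxp3 guide in orange; points are libraries, lines join group means, and values of 0 are drawn at 0.01 CPM. Ccl1 has libraries at 0 counts, Tnfsf8 shows stimulated levels that differ between guides from like starting levels, and Foxp3 stays near its starting level with either guide.

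Receptors for these ligands moved in both directions. In the TNF receptor superfamily 9 of 16 rose and 7 fell (40.8% and 44.5% of all tested genes), 5 in each direction at least 2-fold. Tnfrsf9 (4-1BB) went from 17.8 and 19.2 to 1043 and 1042 CPM (5.82 ± 0.05) and Tnfrsf4 (OX40) from 84.3 and 83.2 to 1468 and 1504 CPM (4.15 ± 0.05), while the receptor gene Tnfrsf26 changed by -3.77 ± 0.05 and Cd40 by -1.58 ± 0.09. Of 22 coinhibitory and CD28-family receptor genes 14 rose and 7 fell (median 1.42), against 40.8% and 44.5% of all tested genes. Pdcd1, the checkpoint receptor PD-1 (ENSMUSG00000026285.7; chromosome 1, 94038305 to 94052553, minus strand), stood at 15.7 and 15.1 CPM at 0 h and 351 and 353 CPM at 3 h and rose by 4.51 ± 0.04. Its ligand genes Cd274 (PD-L1) and Pdcd1lg2 (PD-L2) rose by 5.53 ± 0.06 and 6.38 ± 0.08. The receptor genes Cd160 and Slamf1 rose by 7.48 ± 0.09 and 5.15 ± 0.05. Cd86 did not pass (0.10 ± 0.07), but was lower on the log2(TPM+1) scale (-0.20, adjusted p = 0.0159).

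Of 31 cytokine receptor genes 16 fell and 14 rose, which is near the 44.5% and 40.8% of all tested genes. Il2ra, the alpha chain of the high-affinity receptor by which Treg cells take up IL-2 (ENSMUSG00000026770.5; chromosome 2, 11642807 to 11693193, plus strand), stood at 262 and 270.0 CPM at 0 h and 2732 and 2739 CPM at 3 h. In control-guide libraries it stood at 1285 and 1312 CPM at 0 h and 5099 and 4928 CPM at 3 h. The stimulated Foxp3-guide libraries stayed below the stimulated control-guide ones although the TCR effect was larger, with 3.36 ± 0.05 against 1.95 ± 0.04 and a difference of 1.41 ± 0.06 (adjusted p = 1.8e-15). Il7r, the receptor for the survival cytokine IL-7, went from 771 and 799 to 74.4 and 73.9 CPM (-3.40 ± 0.05). The interferon gamma receptor gene Ifngr1 changed by -4.20 ± 0.05, opposite in direction to its ligand. Tgfbr3 changed by -2.83 ± 0.08. The decoy receptor gene Il1r2 rose by 7.92 ± 0.09 and Il12rb1 by 3.98 ± 0.05.

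Of 22 genes acting below cytokine receptors 15 rose and 7 fell (40.8% and 44.5% of all tested genes), or 12 and 7 on the log2(TPM+1) scale. Stat5a, which carries the IL-2 signal, went from 70.4 and 69.7 to 1131 and 1107 CPM (3.998 ± 0.05). Cish, the feedback inhibitor CIS, stood at 74.7 and 76.3 CPM at 0 h and 973 and 961 CPM at 3 h. Control-guide libraries held 378 and 378 CPM at 0 h and 1078 and 1122 CPM at 3 h, and the TCR effects differed by 2.14 ± 0.06 (adjusted p = 1.2e-18). The kinase gene Pim3 rose by 3.86 ± 0.05, Jak2 by 3.31 ± 0.05 and the feedback inhibitor gene Socs1 by 2.65 ± 0.07, while Jak1 changed by -1.87 ± 0.04.

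Genes of quiescence, the naive state and egress fell for the most part, with 24 of 30 falling at least 2-fold (28.4% of all tested genes), 5 rising and a median of -2.07. Beside S1pr1 and Klf2, the receptor gene S1pr4 changed by -5.76 ± 0.06, Tsc22d3 (the glucocorticoid-induced leucine zipper GILZ) by -5.64 ± 0.06 and Txnip, the thioredoxin-interacting brake on glucose uptake, by -5.22 ± 0.05. Txnip went from 838 and 853 to 22.4 and 22.9 CPM. Klf4 did not pass (0.03 ± 0.17). For Klf2 the fall was larger than with the control guide (from 250.2 and 271 to 19.1 and 21.1 CPM), with a difference of -2.53 ± 0.10 (adjusted p = 1.7e-15). The same held for S1pr1 (from 839 and 839 to 42.8 and 40.8 CPM with the control guide), with a difference of -2.28 ± 0.07 (adjusted p = 6.8e-18). Both stimulated Foxp3-guide libraries of these 2 genes lay below both stimulated control-guide ones.

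Of 29 chemokine receptor and integrin genes 16 rose and 11 fell (40.8% and 44.5% of all tested genes). Cd69, which holds S1PR1 off the surface, went from 11.3 and 13.2 to 371 and 441 CPM (5.05 ± 0.33), opposite in direction to S1pr1. Itgb8, a beta integrin subunit that releases TGF-beta from its latent form, went from 2.45 and 2.46 to 123 and 123 CPM (5.65 ± 0.06). The oxysterol receptor gene Gpr183 rose by 3.45 ± 0.04, whereas Cxcr4 changed by -4.30 ± 0.05, the gut-homing receptor gene Gpr15 by -4.44 ± 0.07 and Itgb3 by -3.65 ± 0.04. Of 33 measured Treg signature genes 21 rose, 9 fell (40.8% and 44.5% of all tested genes) and 3 did not pass. Penk, the enkephalin precursor, rose from 1.02 and 1.32 to 292 and 309 CPM (8.003 ± 0.07), Cd83 from 1.11 and 1.28 to 146 and 149 CPM (6.95 ± 0.06) and Il10 from 1.89 and 2.31 to 146 and 154 CPM (6.16 ± 0.06). Cd83 had begun at 11.4 and 11.7 CPM with the control guide and ended at 371 and 377 CPM. Both stimulated Foxp3-guide libraries of Cd83 lay below both stimulated control-guide ones, while the difference between the TCR effects was 1.94 ± 0.10 (adjusted p = 8.8e-14).

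Of 19 regulators of mRNA decay 9 rose and 8 fell, near the 40.8% and 44.5% of all tested genes. The median of these regulators, 0.08, turned to -0.10 with upper-quartile scaling. Zc3h12c, a relative of the endonuclease regnase-1, rose by 5.68 ± 0.08 and Zfp36l1, which binds AU-rich elements, by 3.25 ± 0.04, while its relative Zfp36l2 changed by -2.78 ± 0.04. Pdcd4, an inhibitor of translation, went from 477 and 499 to 18.9 and 18.7 CPM (-4.70 ± 0.05). The antiproliferative genes Tob1 and Btg2 changed by -3.12 ± 0.05 and -1.74 ± 0.04. A list of 23 anergy ligases, diacylglycerol kinases and brakes on PI3 kinase and mTOR had 16 falls and 5 rises, against 44.5% and 40.8% of all tested genes. The stress-response gene Sesn1 changed by -3.27 ± 0.05, the PI3 kinase regulatory subunit gene Pik3r1 by -2.72 ± 0.04, the mTOR inhibitor gene Ddit4 by -2.39 ± 0.05 and Dgka, which removes diacylglycerol, by -2.20 ± 0.04. Ndfip2, an adaptor for the ligase ITCH, rose by 1.97 ± 0.04.

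Ribosome biogenesis genes and most genes of nutrient uptake rose. Myc (ENSMUSG00000022346.15; chromosome 15, 61985391 to 61990374, plus strand), the driver of ribosome production and of metabolism in activated T cells, stood at 8.85 and 8.41 CPM at 0 h and 1104 and 1103 CPM at 3 h. Control-guide libraries held 44.8 and 45.4 CPM at 0 h and 1192 and 1232 CPM at 3 h. The unstimulated Foxp3-guide libraries lay below the control-guide ones, the stimulated libraries of both guides lay close together, and the TCR effects of 6.998 ± 0.06 and 4.75 ± 0.05 differed by 2.25 ± 0.07 (adjusted p = 5.9e-18). Of 11 tested genes of the MYC network 6 rose and 4 fell (40.8% and 44.5% of all tested genes). The antagonists Mxd4, Mxd3 and Mxi1 were among the falls, at -5.50 ± 0.05, -4.82 ± 0.07 and -2.59 ± 0.05. All 32 ribosome biogenesis genes rose at least 2-fold, with a median of 3.27 (22.6% of all tested genes rose that far). Polr1b, a subunit of RNA polymerase I (ENSMUSG00000027395.15; chromosome 2, 129100995 to 129126594, plus strand), went from 7.81 and 7.17 to 349 and 353 CPM (5.55 ± 0.05). Grwd1, Rrp9, Nolc1, Rrp12 and Rrp1b, which assemble or process ribosomal RNA, rose by 5.48 ± 0.06, 4.96 ± 0.05, 4.83 ± 0.05, 4.61 ± 0.05 and 4.46 ± 0.05. The 28 genes of cytosolic ribosomal proteins had 17 rises, 2 falls (40.8% and 44.5% of all tested genes) and 9 not past the test. None of them reached 2-fold. Their median of 0.13 turned to -0.04 with upper-quartile scaling and to -0.16 in TPM, where 2 rose and 18 fell. The largest value among them was that of Rpl10a (0.60 ± 0.05).

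All 24 nutrient transporter and polyamine genes rose (21, with 1 fall, on the log2(TPM+1) scale), 18 at least 2-fold (median 2.54). Of all tested genes 40.8% rose, 22.6% at least 2-fold. Srm, spermidine synthase, rose from 5.98 and 4.96 to 335 and 340.1 CPM (5.95 ± 0.06), the lactate transporter gene Slc16a1 by 5.39 ± 0.05 and the transferrin receptor gene Tfrc by 4.42 ± 0.05. Slc7a5, the large neutral amino acid transporter, rose from 43.9 and 44.6 to 485 and 471 CPM (3.43 ± 0.04). Nucleotide and one-carbon synthesis genes rose in 20 of 25 cases and fell in 5 (40.8% and 44.5% of all tested genes). Shmt1 changed by 5.69 ± 0.06 and Ctps, the CTP synthase that proliferating lymphocytes need, by 4.15 ± 0.04. Ppat changed by 3.08 ± 0.04 and Ctps2 by -2.76 ± 0.05. Ctps and Ctps2 encode enzymes of the same reaction and moved in opposite directions. Glycolysis genes were mixed, 12 up and 8 down of 21 (40.8% and 44.5% of all tested genes). Hk2, the inducible hexokinase, went from 1.99 and 1.82 to 222 and 221 CPM (6.86 ± 0.06), while Pfkm changed by -2.31 ± 0.08. Of 21 respiratory chain genes 16 rose and 3 fell (40.8% and 44.5% of all tested genes). At least 2-fold was 1 of the rises (Atp5b, 1.09 ± 0.04). On the log2(TPM+1) scale 7 of the 21 rose and 10 fell.

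Of 29 cholesterol and fatty acid synthesis genes 17 rose and 11 fell (40.8% and 44.5% of all tested genes). The synthesis genes Hsd17b7, Idi1, Cyp51 and Sqle rose by 3.47 ± 0.07, 3.04 ± 0.05, 2.91 ± 0.05 and 2.60 ± 0.05. Abcg1, which exports cholesterol, changed by -4.17 ± 0.06. Beside 40.8% of all tested genes, heat shock genes rose in 14 of 16 cases (median 1.53), led by the mitochondrial chaperone Hspa9 at 3.64 ± 0.04 and by Hsph1 at 3.60 ± 0.05. Chaperones and sensors of the endoplasmic reticulum rose in 19 of 22 cases against the same share, with Hspa5 (BiP) from 187 and 186 to 1938 and 1982 CPM (3.40 ± 0.05). ATF4 stress genes and tRNA synthetases rose in 19 of 25 cases against that share and fell in 4, with Asns, asparagine synthetase, at 3.80 ± 0.07 and the synthetase genes Iars and Tars at 2.85 ± 0.04 and 2.83 ± 0.04.

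Genes of mitosis and DNA replication fell at 3 h. Every one of 24 mitosis genes fell at least 2-fold, with a median of -2.50 (28.4% of all tested genes fell that far). Cdc25b, the phosphatase that opens mitosis (ENSMUSG00000027330.16; chromosome 2, 131186949 to 131198497, plus strand), stood at 648 and 635 CPM at 0 h and 16.8 and 16.9 CPM at 3 h and changed by -5.25 ± 0.05. The spindle genes Nusap1 and Tpx2 changed by -4.13 ± 0.05 and -3.22 ± 0.04 and the kinetochore gene Cenpf by -3.99 ± 0.06. All 22 DNA replication genes fell as well (44.5% of all tested genes), 12 at least 2-fold, with a median of -1.08. Thymidine kinase Tk1 changed by -2.87 ± 0.05, the ligase gene Lig1 by -1.94 ± 0.05 and Rrm2, the ribonucleotide reductase subunit, by -1.80 ± 0.04. With the control guide 24 of 24 and 19 of 22 members of these lists fell, against 40.9% of all tested genes.

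Among 21 G1 cyclins, CDK inhibitors and pocket proteins 8 rose and 12 fell (40.8% and 44.5% of all tested genes). Cdkn1b, the inhibitor p27 that keeps T cells out of cycle (ENSMUSG00000003031.14; chromosome 6, 134920401 to 134925513, plus strand), stood at 369 and 381 CPM at 0 h and 14.8 and 16 CPM at 3 h and changed by -4.60 ± 0.05. Cdkn2d and Cdkn2c changed by -4.71 ± 0.06 and -3.34 ± 0.05 and the pocket protein gene Rbl2 by -4.13 ± 0.05, while cyclin D2, Ccnd2, rose from 127 and 132 to 2672 and 2760.5 CPM (4.39 ± 0.05). Cdkn1a, which encodes the inhibitor p21 and was chosen after its values were seen, rose by 1.14 ± 0.04 (from 306 and 305 to 665 and 683 CPM).

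Of 16 BCL-2 family genes 5 rose, 7 fell (40.8% and 44.5% of all tested genes) and 4 did not pass. The list median of -0.01 turned sign with RLE scaling (0.04). The survival gene Bcl2l1 (BCL-XL) went from 10.5 and 10.3 to 536 and 554 CPM (5.71 ± 0.05), whereas the death genes Bmf and Bbc3 (PUMA) changed by -5.17 ± 0.14 (-5.86 without the second stimulated library) and -3.07 ± 0.06. The death gene Bid went the other way, at 3.63 ± 0.06. Mcl1 did not pass (0.07 ± 0.04) and took either sign under other scalings (0.11 with RLE and -0.11 with upper-quartile factors). Among 21 p53 targets 7 rose and 11 fell (40.8% and 44.5% of all tested genes). Beside Sesn1, Bbc3 and Btg2, Gtse1 changed by -2.20 ± 0.05, while Perp, Plk2 and Aen rose by 2.48 ± 0.06, 2.23 ± 0.04 and 1.87 ± 0.04. Of 14 tested granzyme and cytotoxic genes 10 rose and 2 fell (40.8% and 44.5% of all tested genes). Crtam, a receptor of cytotoxic CD4 T cells, went from 0.084 and 0.0727 to 42.4 and 43.6 CPM (9.06 ± 0.13). With the control guide it went from 0.201 and 0.265 to 10.5 and 10.9 CPM, a difference of 3.56 ± 0.44 (adjusted p = 3.2e-07). The pore gene Prf1 rose by 3.31 ± 0.12 and the protective serpin genes Serpinb9 and Serpinb6b by 3.78 ± 0.05 and 4.46 ± 0.06.

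Of 29 interferon-stimulated genes 12 rose and 14 fell, near the 40.8% and 44.5% of all tested genes. The genes Ifit2 and Oasl2 changed by -3.04 ± 0.06 and -2.82 ± 0.10, and Isg15 and the GTPase gene Iigp1 by 2.11 ± 0.13 and 2.25 ± 0.04. GIMAP GTPases, which sustain T cell survival, had 2 rises and 5 falls of 8 (40.8% and 44.5% of all tested genes). Gimap5 changed by 2.65 ± 0.04 and its neighbour Gimap7 by -2.48 ± 0.06. Of markers of other cells, Epcam rose from 2.97 and 2.59 to 60.2 and 63.8 CPM (4.48 ± 0.07). The integrin gene Itgam rose from 1.62 and 1.47 to 3.47 and 3.67 CPM (1.21 ± 0.14, and 0.25 with an adjusted p of 0.0867 on the log2(TPM+1) scale). Of 11 myeloid and dendritic markers 5 were tested, and 2 rose and 1 fell at least 2-fold (22.6% and 28.4% of all tested genes). Of those not tested, S100a8, S100a9 and Siglech had 0 counts in every Foxp3-guide library, and Lyz2, Csf1r and Cd14 at most 4.

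**Figure D3:**
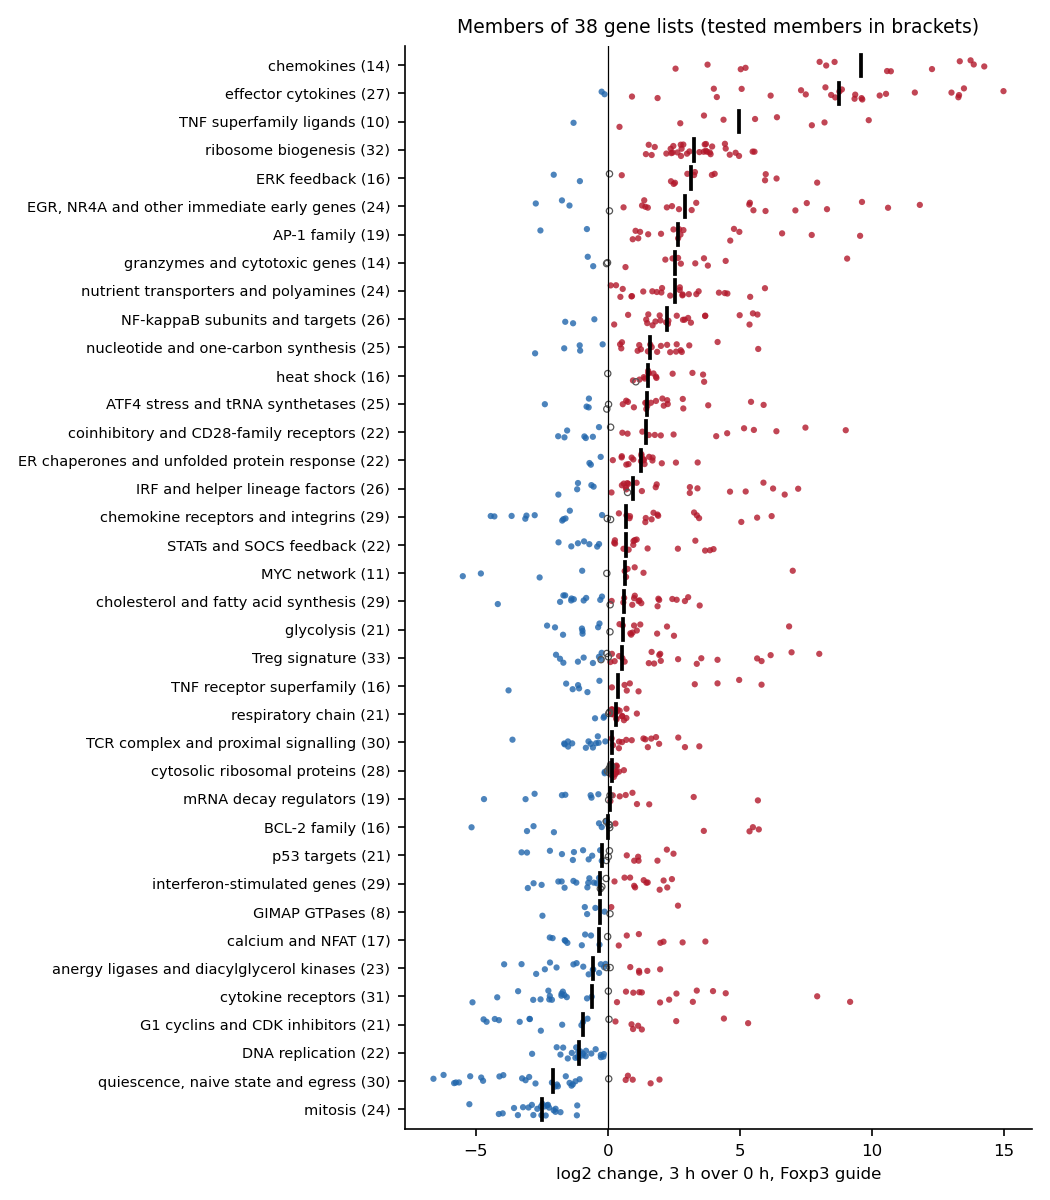
Each point is a tested member of 1 of 38 gene lists, placed by its log2 change from 0 h to 3 h with the Foxp3 guide; red points rose, blue points fell, open points did not pass the test, black bars are list medians and numbers in brackets are tested members. Chemokines and effector cytokines have the highest medians drawn (9.58 and 8.77; 2.84 and 4.65 on the log2(TPM+1) scale), and mitosis and quiescence genes the lowest (-2.50 and -2.07).

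Promoters of the genes that moved were read for short motifs of the factors at the end of the TCR pathway. The 5 windows shown were chosen after the matches were seen, because each gene rose and holds a match. They are the 250 bases before the RefSeq start of transcription (GRCm38.p6), written 5′ to 3′ on the strand of the gene, with motif matches in capitals. Il2 (chr3:37125955-37126204, minus strand) has 2 NFAT matches. Rel (chr11:23770970-23771219, minus strand) has 2 overlapping NF-kappaB matches. Cxcl2 (chr5:90903649-90903898, plus strand) has 2 NF-kappaB matches, the second of which overlaps an NFAT match. Rrn3 (chr16:13780449-13780698, plus strand), which encodes an RNA polymerase I initiation factor and went from 32.7 and 34.1 to 157 and 152 CPM, has 2 E-boxes. Slamf7 (chr1:171649000-171649249, minus strand), a SLAM-family receptor gene described among the differences between guides, has 1 AP-1 match.
Il2: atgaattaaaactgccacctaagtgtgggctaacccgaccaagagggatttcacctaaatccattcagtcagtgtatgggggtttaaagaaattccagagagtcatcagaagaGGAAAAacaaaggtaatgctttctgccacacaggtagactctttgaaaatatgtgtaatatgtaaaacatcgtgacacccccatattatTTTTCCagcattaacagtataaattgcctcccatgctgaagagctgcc
Rel: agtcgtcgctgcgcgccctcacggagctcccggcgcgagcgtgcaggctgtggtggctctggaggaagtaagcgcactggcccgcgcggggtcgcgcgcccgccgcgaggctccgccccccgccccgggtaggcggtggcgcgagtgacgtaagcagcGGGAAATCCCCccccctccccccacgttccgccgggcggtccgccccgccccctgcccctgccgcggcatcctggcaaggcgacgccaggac
Cxcl2: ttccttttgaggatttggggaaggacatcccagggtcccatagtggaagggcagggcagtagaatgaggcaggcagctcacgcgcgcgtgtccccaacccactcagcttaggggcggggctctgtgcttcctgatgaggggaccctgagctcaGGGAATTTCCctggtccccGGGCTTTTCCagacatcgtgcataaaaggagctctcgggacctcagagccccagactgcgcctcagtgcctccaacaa
Rrn3: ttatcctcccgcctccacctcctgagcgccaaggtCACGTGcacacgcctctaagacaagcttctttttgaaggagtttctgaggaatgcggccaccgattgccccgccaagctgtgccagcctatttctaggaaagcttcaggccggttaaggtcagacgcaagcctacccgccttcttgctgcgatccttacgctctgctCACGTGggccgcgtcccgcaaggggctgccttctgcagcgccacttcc
Slamf7: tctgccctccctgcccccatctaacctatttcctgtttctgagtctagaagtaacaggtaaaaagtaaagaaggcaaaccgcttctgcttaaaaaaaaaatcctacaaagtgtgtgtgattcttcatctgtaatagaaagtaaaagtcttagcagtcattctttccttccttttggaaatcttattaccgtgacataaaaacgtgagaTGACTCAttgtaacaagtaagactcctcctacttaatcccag

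Windows of 300 bases (250 before and 50 after the start) were available for 10872 of 16610 tested genes with a unique symbol, and shares were taken over the 8080 protein-coding genes with exactly 1 window. The search was by letters on both strands, with N for any base. The E-box CACGTG, which MYC and MAX bind, was in 15.9% of windows of genes at least 4-fold higher, 6.59% of those at least 4-fold lower and 808 of all 8080 windows. The AP-1 motif TGANTCA was in 7.49%, 4.52% and 4.7% of the same classes, and the cyclic AMP response motif TGACGTCA in 4.23%, 1.63% and 3.35%. The NF-kappaB motif GGGNNTTNCC was in 7.17%, 5.69% and 5.47%, the NFAT core GGAAAA in 22.8%, 18.9% and 20.9%, the EGR motif GCGNGGGCG in 11.3%, 9.03% and 10.5%, and the CArG box in 1.52%, 1.26% and 1.25%. A match to the E-box was in 8 of 25 windows of the ribosome biogenesis list (among them those of Grwd1 and Rrn3). A match to the NF-kappaB motif was in 8 of 18 windows of the NF-kappaB list and 6 of 11 of the chemokine list. These pairs of list and motif are a selection from all pairs searched. E-box matches were also in 5 of 11 windows of the TNF receptor list and 4 of 10 of the p53 list. Genes of both lists moved in both directions. The AP-1 motif was in 0 of 13 windows of the AP-1 family list. These are counts of letters, not of bound sites.

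**Figure D4:**
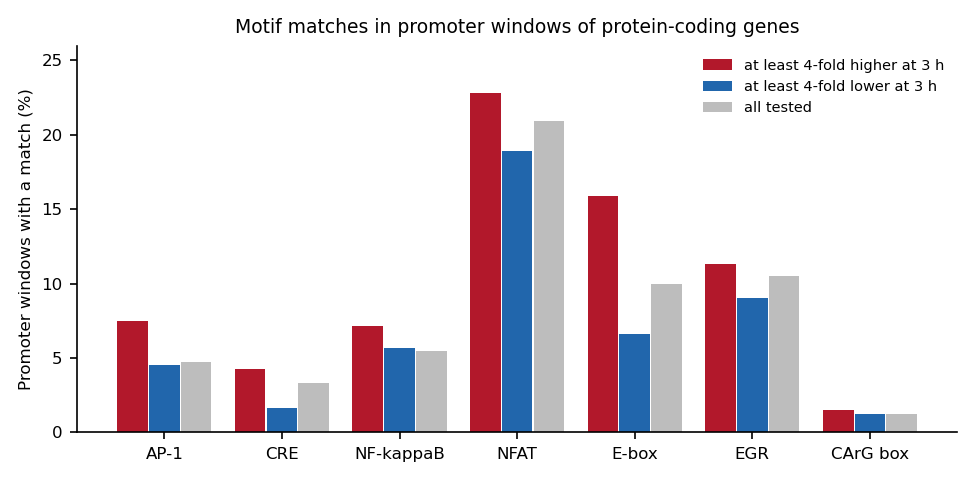
Percent of 300-base promoter windows with at least 1 match to each of 7 motifs, for protein-coding genes called at least 4-fold higher at 3 h (red), at least 4-fold lower (blue) and all 8080 tested genes with 1 window (grey). The E-box bars of the higher and lower genes are the farthest apart, at 15.9% and 6.59%.

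By annotation, protein-coding genes at least 4-fold higher spanned a median of 20.2 kb in the annotation, those at least 4-fold lower 26 kb and all tested ones 23.3 kb. Long noncoding RNAs made up 8.8% of the genes at least 4-fold higher, 15.9% of those at least 4-fold lower and 8.51% of all.

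The last comparison asked where the response with the Foxp3 guide differs from that with the control guide. The 2 guides share no library, and across genes the TCR effects correlated at r = 0.899 with the same sign in 89.5% of genes, which are not independent replicates. The difference itself, tested as an interaction in the same fit, was called in 7457 of 16642 genes (44.8%), 2960 more positive (17.8%) and 4497 more negative (27%) with the Foxp3 guide. With median-ratio (RLE) or upper-quartile scaling 48.7% of such calls were more positive instead of 39.7%, on the log2(TPM+1) scale 51.5% of 5910, and 48.7% of 6541 without the second stimulated Foxp3-guide library. The balance of directions therefore depends on scaling. The Foxp3-guide libraries were also deeper, and with counts thinned to the smallest library 6838 differences were called, 1437 of them at least 2-fold. At least 2-fold differences were called in 1557 genes (9.36%), 555 more positive (3.33%) and 1002 more negative (6.02%). Among 12187 genes called with both guides in the same direction, the difference was called in 4074 with a larger change with the Foxp3 guide. In 1736 it was called with a smaller one (24.5% and 10.4% of tested genes). Across all tested genes the slope of the Foxp3-guide on the control-guide TCR effect was 1.03. Of 709 genes called at least 2-fold with the Foxp3 guide and not called with the control guide (where 81.8% of genes were called), the difference was called in 227.

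Above a mean log2 CPM of 3 over all 8 libraries, the largest difference toward a larger rise was that of Jaml, and larger ones occurred among weaker genes. Jaml, a junctional adhesion molecule-like costimulator (ENSMUSG00000048534.7; chromosome 9, 45079183 to 45108534, plus strand), stood at 8.01 and 7.84 CPM at 0 h and 245 and 245 CPM at 3 h. Control-guide libraries held 18.5 and 19.3 CPM at 0 h and 53.9 and 53.5 CPM at 3 h, a difference of 3.45 ± 0.07 (adjusted p = 5.2e-21). Slamf7 stood at 0.098 and 0.233 CPM at 0 h and 167 and 169 CPM at 3 h. In control-guide libraries it stood at 1.03 and 1.35 CPM at 0 h and 138 and 131 CPM at 3 h, a difference of 3.17 ± 0.28 (adjusted p = 1.8e-09) (3.89 without the second unstimulated Foxp3-guide library). In both genes the unstimulated Foxp3-guide libraries lay below, and the stimulated ones above, the control-guide libraries of the same time. The adhesion gene Mpzl2 differed by 2.79 ± 0.07 (adjusted p = 1.2e-18), Serpinb6b by 2.67 ± 0.09 (adjusted p = 5.9e-17), Pdcd1lg2 by 2.62 ± 0.12 (adjusted p = 1.8e-14), Hbegf by 2.56 ± 0.24 (adjusted p = 2.8e-09) and Il1r2 by 2.48 ± 0.17 (adjusted p = 1.6e-11). The stress pseudokinase gene Trib3 changed by -0.72 ± 0.07 with the Foxp3 guide and by -3.19 ± 0.10 in control-guide libraries, a difference of 2.47 ± 0.12 (adjusted p = 4.9e-14). Epcam differed by 2.46 ± 0.09 (adjusted p = 2.5e-16).

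Toward a larger fall or a smaller rise, the largest difference above that level was that of Cx3cr1, the fractalkine receptor (ENSMUSG00000052336.7; chromosome 9, 119901616 to 120069879, minus strand). It went from 21.3 and 22.8 to 4.49 and 4.51 CPM with the Foxp3 guide and, in control-guide libraries, from 4.56 and 4.71 to 9.43 and 9.09 CPM, a difference of -3.29 ± 0.11 (adjusted p = 9.5e-17). The apolipoprotein L gene Apol9b differed by -2.82 ± 0.10 (adjusted p = 1.7e-16), the urea transporter gene Slc14a1 by -2.68 ± 0.10 (adjusted p = 2.3e-16) and Ifi208, of the interferon-inducible p200 family, by -2.39 ± 0.12 (adjusted p = 3.9e-13). Gadd45g, an early stress gene, rose from 5.61 and 4.76 to 44.9 and 48.4 CPM with the Foxp3 guide and, in control-guide libraries, from 3.35 and 2.81 to 139 and 157 CPM, a difference of -2.42 ± 0.14 (adjusted p = 1.9e-09). The potassium channel partner Kcnip2 differed by -2.38 ± 0.13 (adjusted p = 4.5e-13), the small GTPase gene Arl4c by -2.36 ± 0.06 (adjusted p = 7.4e-19) and Ypel3 by -2.34 ± 0.08 (adjusted p = 5.9e-17).

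**Figure D5:**
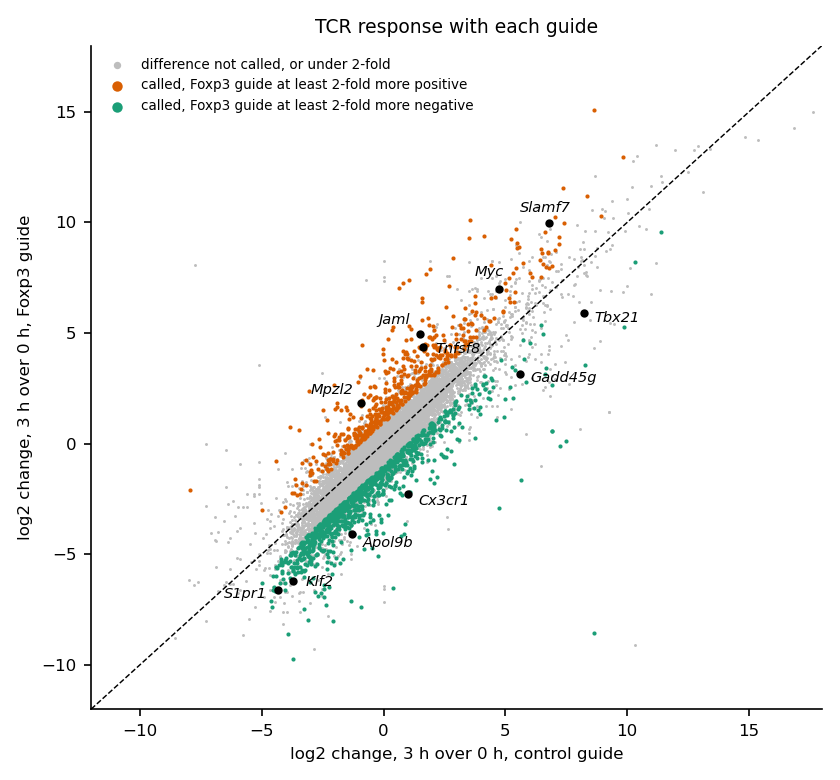
Log2 change from 0 h to 3 h of each of 16642 genes with the control guide (horizontal) and the Foxp3 guide (vertical); the dashed line marks equal change. Orange and green points are the 555 and 1002 genes whose TCR effects differ by at least 2-fold with the difference called, with Tnfsf8, Jaml and Mpzl2 above the line and Cx3cr1, Gadd45g and Tbx21 below it.

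By list, the differences can be read against the 17.8% and 27% of all tested genes that were more positive and more negative. Of 27 effector cytokine genes 11 responded more positively and 2 more negatively, with medians of 8.77 for the Foxp3 guide and 6.90 for the control guide (6.75 with genes at 0 counts set to their bound). On the log2(TPM+1) scale, where a start near 0 weighs less, 23 were more positive and 3 more negative. Of 22 coinhibitory and CD28-family receptor genes 14 were more positive and 4 more negative. Of 30 quiescence and egress genes 19 were more negative, 12 of them at least 2-fold, and 4 more positive (medians -2.07 and -1.63). Of 32 ribosome biogenesis genes 20 were more positive and 4 more negative. For 18 of 24 mitosis genes the difference was not called, while 6 were more positive and, on the log2(TPM+1) scale, 1 more positive and 7 more negative (medians -2.50 and -2.59). Of 33 Treg signature genes 15 were more positive and 11 more negative. No respiratory chain or cytosolic ribosomal protein gene was more positive, while 15 of 21 and 15 of 28 were more negative, none of them by 2-fold. With RLE scaling 8 of each list were more negative, and on the log2(TPM+1) scale 4 and 7.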

How the data were processed

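RNA was sequenced from 8 stranded libraries. Per the submitters' processing notes, the authors used Trim Galore 0.6.3, STAR 2.7.9a and RSEM 1.3.1 on mm10 (GRCm38). The authors deposited RSEM expected counts per gene and, in a separate table, RSEM's TPM values. The annotation release is not given in the sources used here, and 55180 of 55665 gene identifiers matched GENCODE M21, from which coordinates and gene types were taken.

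Expected counts were rounded, filtered with filterByExpr and fitted over all 8 libraries with a mean per group (edgeR 4.0.16, R 4.3.3, TMM scaling, robust quasi-likelihood). Genes were called at a Benjamini-Hochberg adjusted p below 0.05 over 16642 genes, also with a 2-fold minimum. Alternatives were DESeq2 1.42.0, scaling by RLE or upper-quartile factors, limma 3.58.1 (voom, and log2(TPM+1) or log2(TPM+0.1)), other filters and thresholds, thinning, a replicate block and leaving out each library. Promoter windows came from RefSeq (GRCm38.p6).

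Members and gene lists were chosen with earlier results of these data known, so list counts are descriptions. By rule the text names the 15 largest called rises and falls above a mean log2 CPM of 3 over the Foxp3-guide libraries whose times do not overlap, the 10 largest called differences in each direction above that mean over all 8, and up to 6 called members a list above a mean of 1. It leaves out numbered gene models, pseudogenes and receptor segments and says where a gene was chosen otherwise. Folds against 0 counts use a floor of 3 counts over the group and counting intervals of 95% are exact, and both cover counting error only.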

Additional observations from a re-analysis of the deposited data

Results flagged for a closer look

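With the 2 guides 425 genes (2.55% of those tested) were called in opposite directions. In 9 of them a called rise of at least 2-fold with the Foxp3 guide met a called fall of that size with the control guide, and in 11 the reverse held, each with a called difference in the interaction test of edgeR. The highest mean level among the 9 was that of Itgam, which encodes an integrin subunit of myeloid cells (1.62 and 1.47 CPM at 0 h and 3.47 and 3.67 CPM at 3 h with the Foxp3 guide, 1.68 and 1.9 CPM at 0 h and 0.688 and 0.803 CPM at 3 h with the control guide). Among the 11 it was that of Tmem273, which went from 1.78 and 2.15 to 0.633 and 0.632 CPM and, with the control guide, from 0.804 and 0.999 to 1.95 and 2.62 CPM. Both were chosen after their values were seen.

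Of the genes named for the size of their difference, 3 also changed in opposite directions. Mpzl2, an adhesion gene, changed by 1.86 ± 0.05 with the Foxp3 guide, against -0.93 ± 0.05 in control-guide libraries, a difference of 2.79. Cx3cr1 changed by -2.29 ± 0.07 with the Foxp3 guide and went from 4.56 and 4.71 to 9.43 and 9.09 CPM in control-guide libraries, a difference of -3.29. Slc14a1 changed by -2.02 ± 0.08 with the Foxp3 guide, against 0.65 ± 0.06 in control-guide libraries, a difference of -2.68. Each difference passed the interaction test, and its cause was not tested.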

How the results depend on the processing

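Counts of genes past each threshold stayed within 1.5 times those reported, except that on the log2(TPM+1) scale 5652 TCR effects and 701 differences reached 2-fold (4843 differences called and 730 at 2-fold without a gene filter), that a minimum of 1 CPM in all 8 libraries left 4804 and 651 at 2-fold, and that a test against 1.2-fold called 3963 differences. Fewer genes were tested with the CPM minimum (11014), and the other causes were not tested. Leaving out 1 library gave 13532 to 14544 TCR effects (8375 to 8807 at 2-fold) and 6541 to 7323 differences (1377 to 1576 at 2-fold). The lone library of a group was then assumed to vary like the other groups. DESeq2 called 13219 TCR effects and 5871 differences. Like totals need not be the same genes. DESeq2 called 92.5% of the reported TCR effects and 75.4% of the reported differences in the same direction. On the log2(TPM+1) scale with the same genes tested, these shares were 86.6% and 64.2%. There 202 reported TCR effects and 44 reported differences were called in the opposite direction.

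A replicate block gave 14111 and 7240 calls, of which 14078 and 7205 were among those reported; with the block 8460 and 1519 reached 2-fold, and it changed no call of a gene named. The numbers were not taken as a pairing, since no label ties them to an animal or day and deviations of same-numbered Foxp3-guide libraries correlated at -0.076.

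Of 4083 alternative values for the 211 genes named, 4056 kept their side of the threshold and, where either fit passed it, their direction. A change of sign between fits that both failed the threshold was not counted. Fits with other gene filters, with stricter thresholds or without robust dispersion are not among these values. Cd86 took -0.20 and -0.24 on the log2(TPM+1) and log2(TPM+0.1) scales, and Mcl1 -0.11 with upper-quartile scaling and -0.24 on both TPM scales. With upper-quartile scaling and on the 2 TPM scales, list medians turned negative for TCR complex genes (-0.0076, -0.25, -0.26), mRNA decay regulators (-0.099, -0.25, -0.26), cytosolic ribosomal proteins (-0.039, -0.16, -0.16) and CD8 markers (-0.015, -0.083, -0.088). The BCL-2 median was 0.038 with RLE scaling and with DESeq2, 0.025 with only the 4 Foxp3-guide libraries fitted, and ranged from -0.047 to 0.014 with 1 library left out. With only those 4 libraries the median of erythroid and stromal markers was 0.17. The cause of these turns was not tested. Depth limited genes near 0 counts at 0 h, for which folds are bounds or counting intervals.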

Other observations

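Granzyme genes with too few counts to be tested were uneven between the unstimulated Foxp3-guide libraries. Counts of Gzmd, Gzme, Gzmf and Gzmg were 2, 1, 0 and 0 in the first and 54, 16, 17 and 39 in the second. In the stimulated libraries the same 4 genes had 7, 5, 3 and 0 counts and 14, 6, 3 and 1.

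Across the 199 protein-coding genes called at least 64-fold higher at 3 h, summed CPM in the unstimulated Foxp3-guide libraries was 110.0 in the first and 114.7 in the second. Of these genes 82 were higher in the second, 51 were lower and 66 had 0 counts in both. In the unstimulated control-guide libraries the same genes summed to 204.8 and 211.9 CPM. The genes were chosen by their rise with the Foxp3 guide, which favours low values in the unstimulated Foxp3-guide libraries. The control-guide libraries did not enter that rise, so the sums are not a like comparison between guides.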
